A study of Mus musculus with 16 samples.

Results

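Members of the ADAMTS family of secreted metalloproteases and the hyaluronan-bound proteoglycan genes they act on were followed through BRAF inhibitor treatment in mouse melanoma. The set holds 5 proteases (Adamts1, Adamts4, Adamts5, Adamts9 and Adamts15), the core proteins versican (Vcan) and aggrecan (Acan), the hyaluronan synthase Has2 and the link protein Hapln1. Every non-control probe whose gene name is 1 of these 9 was taken, which gave 9 of 34763 gene names and 14 of the 55681 probes on the array, and all 14 passed the filter on dim probes that left 30486 for testing. The genes were chosen by the measured log2 ratios of Adamts4 and Vcan, which were lower on drug, so the differences of drug-treated from untreated tumours are given as a description, with no test of these genes.

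RNA from 16 melanoma biopsies was labelled with Cy5 and hybridised against a universal mouse reference RNA in Cy3, 4 arrays to a group. Some tumours had no drug, others had a BRAF inhibitor for 4 days or for 60 days, and resistant tumours were sampled at 120 days. The drug, strain, genotype, tumour model and age of the animals are not given in the sources used here, and every level is a log2 ratio of tumour over reference in a whole biopsy. Fewer cells of a type and less RNA per cell cannot be told apart in such RNA. Replicates 1 and 2 of each group lay on slide 2 and replicates 3 and 4 on slide 1. Sample titles carry codes of unstated meaning, and in the 60-day and resistant groups the code changes with the slide, so slide and code cannot be told apart there. No code is shared between groups, so code and treatment cannot be told apart either. The sampling day of untreated tumours is not given. No source used here says that tumours came from separate animals, so the tests measure the spread between these samples.

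Versican and aggrecan are large proteoglycans whose core proteins carry chondroitin sulfate chains. They bind hyaluronan, a long sugar polymer that Has2 makes at the cell membrane, and Hapln1 locks the bond in place, giving a swollen gel around cells. ADAMTS1, ADAMTS4, ADAMTS5, ADAMTS9 and ADAMTS15 cut versican or aggrecan at a glutamate bond in the core protein, and TIMP3 is their main tissue inhibitor. A matrix rich in versican and hyaluronan is typical of skin undergoing repair and of tumour stroma.

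The identity of each signal rests on the probe. Probes are 60 bases long and only their leading 30 bases are printed, 5′ to 3′ in lower case, for the probes of Vcan, Adamts4 and Has2, because the results turn on these genes and because the Vcan probes differ in the transcripts they match. The mm9 coordinates come from the annotation of the array.
Vcan, 3′ probe A_55_P1960202, chr13:89795080-89795139, minus strand: ttcatcctaatgtgtactagagcacagaaa
Vcan, shared probe A_55_P1960208, chr13:89851810-89851869, minus strand: ttgagaaccagacatgcttccctctccctg
Vcan, single-transcript probe A_52_P1044655, chr13:89850072-89850131, minus strand: cggcaggctttaggttgtctatgtaaatga
Adamts4, probe A_55_P2159555, chr1:173190709-173190768, plus strand: aatgagaggaacaggatgtggtctggtatt
Adamts4, probe A_55_P1955778, chr1:173189952-173190011, plus strand: cgcatctttgagcattagttttctcatgtg
Has2, probe A_51_P213359, chr15:56497356-56497415, minus strand: ctagtgggaaacaaacacaccctgacaata

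The array annotation lists 4 RefSeq transcripts for the 3′ probe of Vcan, which lies farthest downstream of the 3. For the shared probe it lists 3 of those together with another transcript, and that other transcript is the only RefSeq one listed for the single-transcript probe. The annotation names at most 4 transcripts a probe, so its lists may be cut short. The array annotation gives transcripts but neither exons nor untranslated regions, and no probe spot of a member was saturated.

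The genome places some of these genes in pairs. On the RefSeq annotation of GRCm38.p6, Hapln1 and Vcan are neighbours on chromosome 13 with 0 protein-coding genes between them and 43.48 kb separating them. Adamts1 and Adamts5 are likewise neighbours on chromosome 16, at 55.04 kb. RefSeq promoter sequence was at hand for 5 of the 9 genes (Acan, Adamts1, Adamts9, Hapln1 and Vcan). The 250 bases before the start of Vcan and Adamts1 are shown because these genes were lower on drug together and each gene has a neighbour in the set. Capitals mark matches to GGGCGG, the letters of the SP factor box, or to TATAAA, the TATA box, on either strand.
Vcan, GRCm38.p6 chr13:89742513-89742762, minus strand: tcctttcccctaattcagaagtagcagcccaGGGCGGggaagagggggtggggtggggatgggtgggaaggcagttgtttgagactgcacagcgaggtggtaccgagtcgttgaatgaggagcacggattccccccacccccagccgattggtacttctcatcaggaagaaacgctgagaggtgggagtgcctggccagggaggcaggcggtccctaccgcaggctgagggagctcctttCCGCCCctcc
Adamts1, GRCm38.p6 chr16:85803114-85803363, minus strand: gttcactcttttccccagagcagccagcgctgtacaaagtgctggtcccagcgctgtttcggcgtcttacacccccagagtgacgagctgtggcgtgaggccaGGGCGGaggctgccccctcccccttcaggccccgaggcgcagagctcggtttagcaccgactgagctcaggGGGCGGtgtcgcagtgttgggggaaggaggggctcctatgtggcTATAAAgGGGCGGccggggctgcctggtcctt

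The Adamts1 sequence holds a TATAAA match that begins 32 bases before the start, and 3 GGGCGG matches, of which 1 begins next to the TATA match at 25 bases. The Vcan sequence holds 2 GGGCGG matches, at 219 and 10 bases before the start, and no TATAAA. Over 32851 mouse promoters of the same length, 32.7% hold GGGCGG and 12.4% hold TATAAA. The letters TGANTCA of AP-1 sites (6.75% of promoters), TGACGTCA of cyclic AMP response elements (1.55%), CCGGAA of ETS sites (12% of promoters) and CACGTG of E-boxes (6.02%) were not found in any of the 5 windows, which says only that these letters are not there.

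Adamts4, the protease also called aggrecanase, had the widest difference on drug. Probe A_55_P2159555 read 4.76, 4.93, 4.48 and 4.70 in untreated tumours, on the log2 ratio scale. It read 2.46, 1.95, 2.27 and 1.13 after 4 days, 3.48, 2.47, 3.29 and 3.19 after 60 days, and 5.06, 4.13, 3.43 and 4.26 in resistant tumours. Every 4-day and 60-day tumour lay below every untreated tumour, while the resistant tumours overlapped the untreated ones.

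The 4-day mean was 1.95 ± 0.59 against 4.72 ± 0.19 in untreated tumours (SD, n = 4 each), a difference of -2.76 ± 0.33 (SE), or 6.80-fold lower in Cy5 over Cy3. The 60-day mean was 3.11 ± 0.44, which is -1.61 ± 0.33 from untreated, or 3.06-fold lower. The difference from untreated lay on the same side on both slides, at -2.89 on slide 1 and -2.64 on slide 2 after 4 days, and at -1.35 on slide 1 and -1.88 on slide 2 after 60 days.

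The other Adamts4 probe, A_55_P1955778, gave the same order. It read 1.74, 1.58, 2.05 and 1.70 in untreated tumours, -0.82, -1.21, -0.78 and -1.41 after 4 days, 0.07, -0.76, 0.22 and 0.19 after 60 days, and 2.04, 0.82, 0.78 and 0.89 in resistant tumours. No 4-day value overlapped a 60-day value, although the highest 4-day tumour (-0.78) lay next to the lowest 60-day tumour (-0.76), and all resistant and untreated tumours lay above both. Its differences from untreated were -2.82 ± 0.28 after 4 days and -1.84 ± 0.28 after 60 days (SE). The levels of the probes differ by about 3 log2 units, and the cause was not tested. Across the 16 arrays the probes had a Pearson r of 0.97, and of 0.78 after each group's mean was taken out.

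Has2, a main hyaluronan-making enzyme of fibroblasts, had a similar profile. Its log2 ratios were 0.06, 0.40, -0.12 and 0.47 in untreated tumours and -1.17, -1.13, -1.67 and -1.81 after 4 days. They were -1.42, -1.27 and -0.96 in 3 of the 60-day tumours, since the spot of 60-day replicate 1 carried an outlier mark and was left out, and 0.94, -0.43, -0.73 and -0.50 in resistant tumours. All treated tumours lay below all untreated ones, and all resistant tumours lay above all treated ones. The difference from untreated was -1.65 ± 0.31 after 4 days, 3.13-fold lower, and -1.42 ± 0.33 after 60 days, 2.68-fold lower (SE, 3 arrays at 60 days).

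Adamts1, a protease of the versican-cutting group that is also known for ovulation and vessel growth, was lower on drug with a wider spread. Its log2 ratios were 2.18, 3.1, 2.24 and 3.05 in untreated tumours, 0.49, 2.14, 0.67 and -0.07 after 4 days, 1.60, 0.81, 0.75 and 1.34 after 60 days, and 3.06, 2.37, 0.77 and 1.61 in resistant tumours. The 4-day tumours did not overlap the untreated ones, although 4-day replicate 2 at 2.14 lay just under the lowest untreated value of 2.18. The differences were -1.84 ± 0.49 after 4 days and -1.52 ± 0.49 after 60 days (SE).

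**Figure D1:**
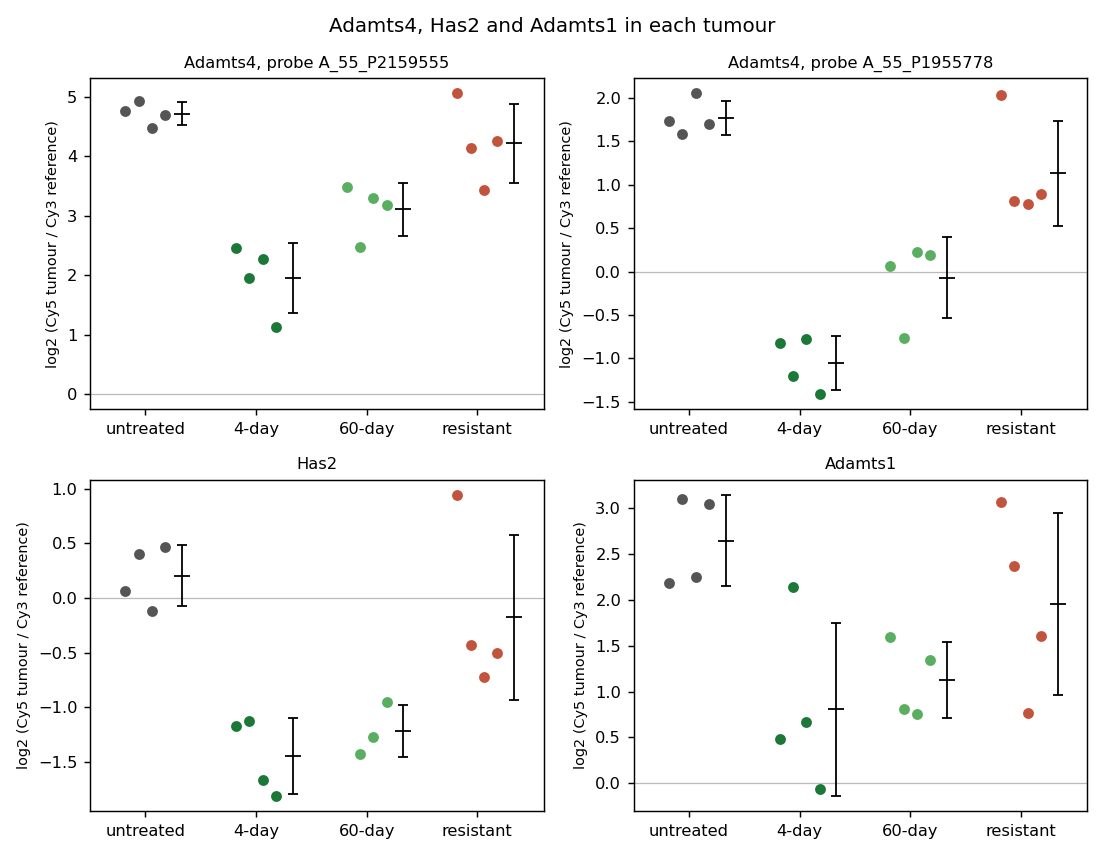
Log2 ratio of tumour Cy5 over reference Cy3 (vertical axis) in each tumour of the 4 groups, for both Adamts4 probes, Has2 and Adamts1. Points are single arrays in the order of replicates 1 to 4, and bars are the group mean ± SD. In both Adamts4 panels the 4-day points are lowest and the 60-day points lie between them and the untreated points, and 1 Has2 spot of the 60-day group is missing.

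Vcan was lower on drug, as Adamts4 was, and its 3′ probe also read below untreated in resistant tumours, while its probes differed in the size of the difference. The 3′ probe read 1.92, 2.34, 1.82 and 2.64 in untreated tumours, 0.04, 1.12, 0.34 and -0.14 after 4 days, 1.19, 0.43, 0.96 and 0.84 after 60 days, and 1.24, 0.34, 1.61 and 1.08 in resistant tumours. All 12 drug-exposed tumours, the resistant ones included, lay below all 4 untreated tumours. The differences from untreated were -1.84 ± 0.30 after 4 days, 3.58-fold lower, and -1.33 ± 0.30 after 60 days, 2.51-fold lower (SE).

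The shared probe gave smaller differences. It read 1.70, 2.40, 0.96 and 2.25 in untreated tumours, 0.94, 1.52, 0.21 and 0.75 after 4 days, 1.58, 1.17, 0.94 and 0.96 after 60 days, and 1.48, 0.88, 0.73 and 1.45 in resistant tumours. Untreated replicate 3, at 0.96, lay inside the range of the other groups, so no group was apart from untreated for this probe. The differences were -0.97 ± 0.32 after 4 days and -0.67 ± 0.32 after 60 days (SE).

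The single-transcript probe was near background. Its Cy5 signal was well above background in 3 of 4 untreated tumours, 1 of 4 after 4 days, 0 of 4 after 60 days and 2 of 4 resistant tumours. It read 0.82, 1.04, 0.23 and 0.58 in untreated tumours, -0.12, 0.35, 0.11 and -0.23 after 4 days, 0.01, -0.17, 0.13 and -0.20 after 60 days, and 0.17, 0.18, 0.11 and 0.14 in resistant tumours. Set against the lowest signal well above background, 60-day tumours were at least 1.46-fold lower in Cy5 than untreated tumours. That bound takes the mean of the untreated group over all its arrays, uses no reference signal, and may carry dye bias, since no array had the dyes swapped. The size of the log2 difference depended on the signal used for this dim spot, at -0.73 after 60 days here and -2.28 on the scanner software's processed signals, and the cause was not tested. The 3 probes had a Pearson r of 0.72 to 0.79 with each other across the 16 arrays.

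**Figure D2:**
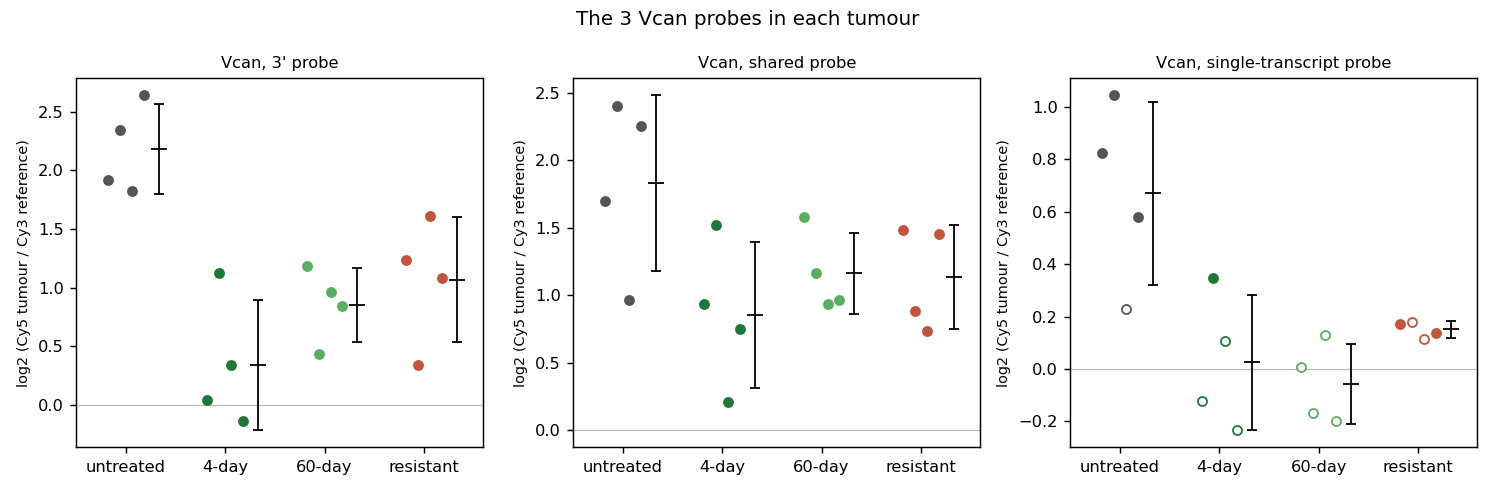
Log2 ratio of tumour Cy5 over reference Cy3 (vertical axis, a separate scale in each panel) for the 3 Vcan probes in each tumour. Filled points are spots well above background, open points are not, and bars are the group mean ± SD. For the 3′ probe the untreated points, from 1.82 to 2.64, lie above all others, of which the highest is 1.61.

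The other proteases were lower by less, or not at all. Adamts5, the main aggrecan-cutting enzyme of mouse cartilage, read 0.21 to 1.84 in untreated tumours with probe A_55_P1970826, -0.14 to 1.07 after 4 days, 0.41 to 0.71 after 60 days and -0.05 to 1.99 in resistant tumours. Its other probe, A_55_P1956918, differed from untreated by -0.96 ± 0.32 after 4 days and by -0.71 ± 0.32 after 60 days (SE), where A_55_P1970826 gave -0.70 ± 0.40 and -0.65 ± 0.40. All groups overlapped for both probes.

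Adamts9, a protease that cuts versican and contributes to coat pigment patterning in mice, read 1.92, 2.29, 1.09 and 2.40 in untreated tumours with probe A_52_P49321. It read 0.58 to 1.32 after 4 days, 0.25 to 1.41 after 60 days and 0.81 to 1.82 in resistant tumours. The differences were -0.99 ± 0.31 after 4 days and -0.94 ± 0.31 after 60 days, and -0.46 ± 0.23 and -0.52 ± 0.23 with the dimmer probe A_51_P407417 (SE). Here too untreated replicate 3 lay among the treated tumours, and it was the lowest untreated tumour for 11 of the 14 probes, which are those of Adamts5, Adamts9, Adamts15, Has2, Acan, all 3 of Vcan and Adamts4 probe A_55_P2159555.

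Adamts15, another protease able to cut versican and aggrecan, did not share the profile. It read 3.20, 2.56, 1.81 and 2.16 in untreated tumours, 2.95, 2.98, 3.22 and 2.37 after 4 days, 2.19, 1.95, 2.25 and 2.42 after 60 days, and 3.19, 3.21, 1.98 and 1.98 in resistant tumours. The resistant tumours split by slide and title code, with replicates 1 and 2 more than a log2 unit above replicates 3 and 4. The difference from untreated was 0.45 ± 0.33 after 4 days and -0.23 ± 0.33 after 60 days (SE), and the 60-day difference was 0.35 on slide 1 and -0.81 on slide 2.

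Acan, the cartilage proteoglycan for which aggrecanases are named, was close to background. Its Cy5 signal was well above background on 4 of 16 arrays, just the number the filter asks for, and its log2 ratios lay between -0.02 and 0.27 in all tumours. No level of Acan can be set by these arrays, and its differences of 0.02 ± 0.10 after 4 days and 0.06 ± 0.10 after 60 days (SE) compare spots near background. Of 12 cartilage markers, Col9a1, Matn1, Matn3, Chad, Cnmd and Snorc did not pass the filter, while Col2a1, Col9a2, Col11a2, Comp, Sox9 and Ucma did. The mean of these 6 was -0.18 to 0.19 in untreated tumours, 0.28 to 0.57 after 4 days, 0.57 to 0.93 after 60 days and -0.18 to 0.75 in resistant tumours, so this mean was above untreated in all 4-day and 60-day tumours. The single markers were uneven. Sox9 differed from untreated by 1.20 after 4 days and 1.10 after 60 days, Comp by 0.57 and 0.28, and Col2a1 by -0.27 and 0.11. Ucma, a cartilage matrix protein named after its values were seen, was the only one of the 6 past the threshold against untreated, at 1.92 ± 0.34 after 60 days and -0.13 ± 0.07 in untreated tumours (SD, n = 4 each, limma adjusted p = 0.036).

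Hapln1 moved between high and low values within groups. It read 1.09, 3.69, 3.46 and 3.07 in untreated tumours, 1.15, 3.13, 0.60 and 0.98 after 4 days, 3.30, 2.86, 2.54 and 2.39 after 60 days, and 0.56, 0.75, 2.79 and 2.40 in resistant tumours. The 60-day tumours were all high, while each other group held both kinds, and the resistant tumours split again by slide and title code. The reference RNA was not well above background for Hapln1 on any array, so the ratio follows the tumour channel over a near-empty reference. The differences from untreated were -1.36 ± 0.66 after 4 days and -0.05 ± 0.66 after 60 days (SE), and the 60-day difference was -0.79 on slide 1 and 0.69 on slide 2. Resistant tumours differed from 4-day tumours by 0.16 ± 0.66 (limma, adjusted p = 0.984), with 1.81 on slide 1 and -1.48 on slide 2. Across 16 arrays the r of Hapln1 was 0.58 with the 3′ probe of its neighbour Vcan and 0.17 with Adamts4.

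**Figure D3:**
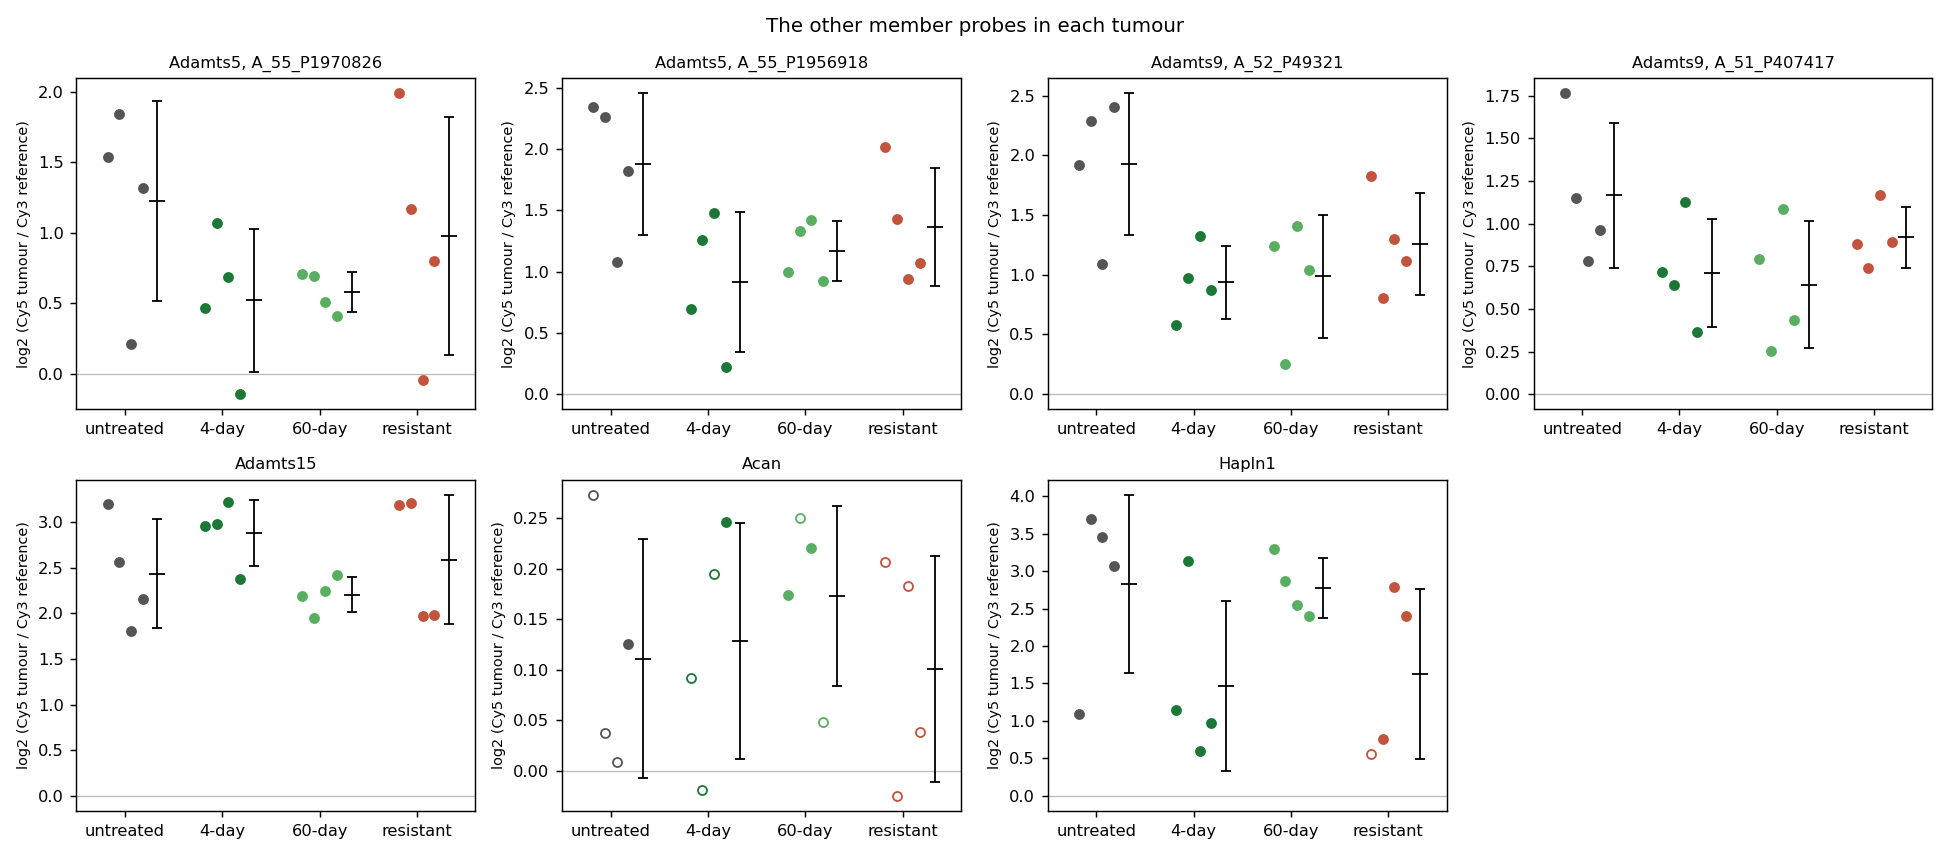
Log2 ratio of tumour Cy5 over reference Cy3 (vertical axis, a separate scale in each panel) for the probes of Adamts5, Adamts9, Adamts15, Acan and Hapln1 in each tumour. Filled points are spots well above background, open points are not, and bars are the group mean ± SD. The groups overlap in each panel, and the Hapln1 and Adamts15 points of resistant tumours fall into a high and a low pair.

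Over all 14 probes, 12 were lower after 4 days and 13 after 60 days than in untreated tumours, with medians of -0.98 and -0.72 beside -0.01 and -0.00 over all probes tested. With limma and adjustment over all probes, 4 of the 14 passed an adjusted p of 0.05 after 4 days, where 1.32% of all probes did, and 3 after 60 days, where 1.05% did. These are the contrasts that chose the genes, so the counts are given with nothing read from them. Groups that did not overlap on the lower side were found for 5 of 14 probes after 4 days, beside 4.01% of all probes, and for 6 after 60 days, beside 6.17%. Nothing is read from these counts either. Both drug comparisons share the untreated tumours.

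**Figure D4:**
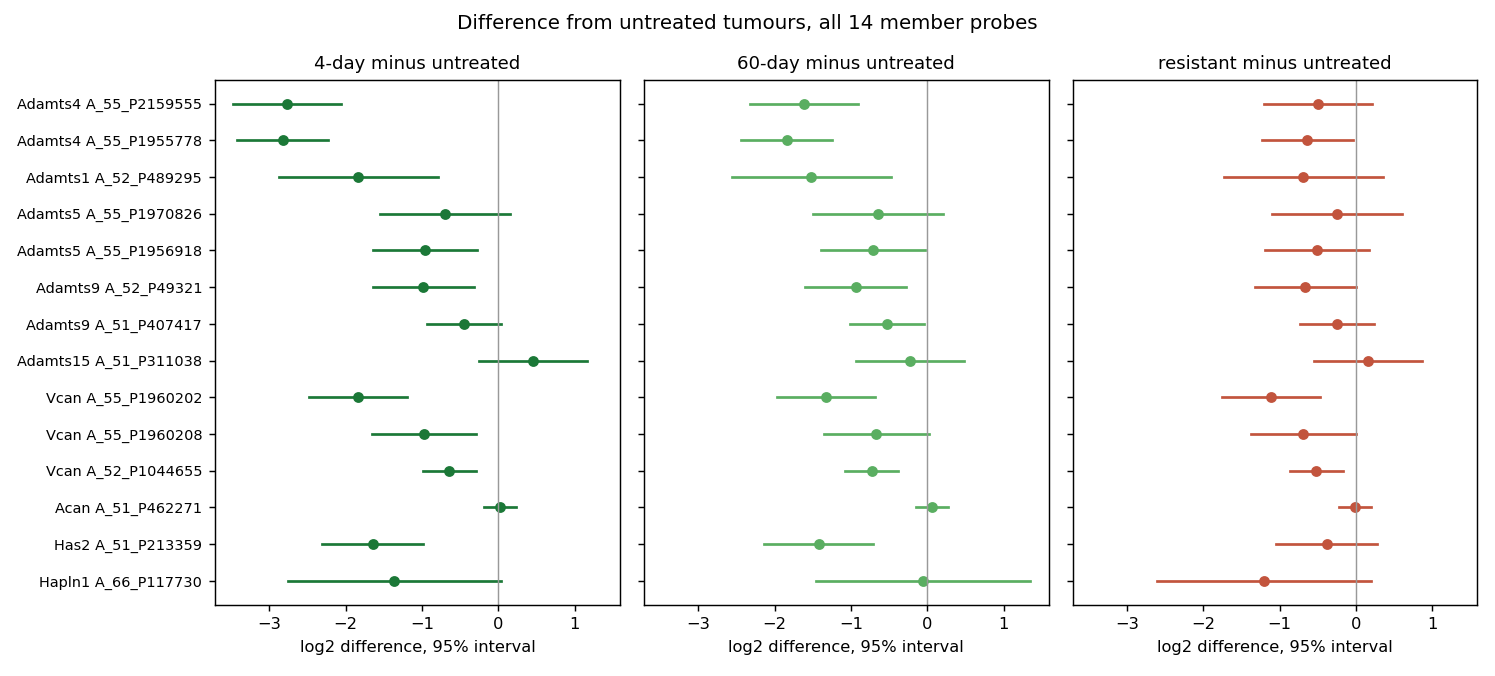
Log2 difference from untreated tumours (horizontal axis) of each of the 14 probes after 4 days, after 60 days and in resistant tumours, one panel each. Points are the differences and bars their 95% intervals from limma. The Adamts4 probes lie farthest left after 4 days, at -2.76 and -2.82, and near -0.50 and -0.64 in resistant tumours.

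Resistant tumours were compared with untreated tumours for every probe, in a contrast that did not choose the genes but shares the untreated tumours with those that did. No probe of the set passed, where 0.0131% of all probes did (4 of 30486). At an unadjusted p under 0.05 there were 4 of 14, beside 9.36% of all probes. These were all Vcan probes and Adamts4 probe A_55_P1955778. Both genes were chosen partly on the untreated tumours, so nothing is read from the count. For the same reason the intervals and p-values of Adamts4 and Vcan against untreated tumours are a description only. The 3′ probe of Vcan differed from untreated by -1.12 ± 0.30, with a 95% interval from -1.76 to -0.47 and groups that did not overlap (limma, adjusted p = 0.181). The single-transcript probe also did not overlap untreated, at -0.52 ± 0.16 (limma, adjusted p = 0.270). It was near background, with 2 of 4 resistant and 3 of 4 untreated tumours well above it. Its difference was -0.28 on slide 1, -0.76 on slide 2 and -1.31 on the scanner software's processed signals. The 3′ and single-transcript probes were the 2 of 14 with no overlap on the lower side, beside 2.75% of all probes. Nothing is read from that count either. The shared probe differed by -0.69 ± 0.32 (limma, adjusted p = 0.528).

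For Adamts4 the resistant tumours differed from untreated by -0.50 ± 0.33 with probe A_55_P2159555 (interval -1.21 to 0.21, limma adjusted p = 0.694). With probe A_55_P1955778 the difference was -0.64 ± 0.28 (interval -1.24 to -0.04, limma adjusted p = 0.493). Has2 differed by -0.38 ± 0.31 (interval -1.04 to 0.28, limma adjusted p = 0.763) and Adamts1 by -0.69 ± 0.49 (interval -1.74 to 0.35, limma adjusted p = 0.719). By slide, Adamts1 differed by -1.46 on slide 1 and 0.08 on slide 2, and Has2 by -0.79 and 0.03. The probes of Adamts5, Adamts9, Adamts15, Acan and Hapln1 differed from untreated by -1.20 to 0.16, with limma adjusted p-values from 0.534 to 0.988. For Has2 and Adamts1, each interval reaches past a log2 difference of -1, a lower level by 2-fold, so the tests do not show that the levels were the same. The Adamts4 intervals also reach past -1, and that of A_55_P1955778 leaves out 0. Nothing is read from them, because the gene was chosen partly on the untreated tumours.

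Resistant replicate 1 weighed on these values. Its median correlation with the other arrays was 0.70, against 0.82 to 0.91 for every other array, and it was the highest resistant tumour for 9 of the 14 probes, which are both of Adamts4, both of Adamts5, those of Has2, Adamts1 and Acan, Adamts9 probe A_52_P49321 and the shared Vcan probe. Its 10 keratinocyte markers averaged 1.34, where the other resistant tumours had 3.36 to 4.45, and its 10 detected macrophage markers averaged 2.79, where the others had 1.48 to 2.05. Without it, resistant tumours differed from untreated by -0.78 and -0.94 for the Adamts4 probes, by -0.76 for Has2 and by -1.06 for Adamts1, and limma adjusted p-values lay from 0.099 to 0.363. The 3′ probe of Vcan differed by -1.17 without it (limma, adjusted p = 0.148). Nothing is read from the p-values of Adamts4 and Vcan here either. The part of cell makeup in these differences was not tested.

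Against 4-day tumours, resistant tumours had higher Adamts4, by 2.27 ± 0.33 and 2.19 ± 0.28 (SE), or 4.81-fold and 4.56-fold, with no overlap for either probe. These share the 4-day tumours with a contrast that chose the gene and are given without a test. The count of 2 of 14 probes past the threshold, both of Adamts4, stands beside 0.0131% of all probes, and nothing is read from it. Higher groups with no overlap were found for 3 of 14 probes, beside 1.37% of all probes, and 5 of 14 had an unadjusted p under 0.05, beside 7.75%. Both counts include the 2 Adamts4 probes, and the latter also the 3′ probe of Vcan, so nothing is read from them. Among the genes that were tested, Has2 was 1.27 ± 0.31 higher, with no overlap (limma, adjusted p = 0.411), and Adamts1 was 1.14 ± 0.49 higher with overlap (limma, adjusted p = 0.609). Neither passed. Without resistant replicate 1 the differences were 1.99 and 1.89 for the Adamts4 probes and 0.89 for Has2. The 3 Vcan probes were higher by 0.73 ± 0.30, 0.28 ± 0.32 and 0.13 ± 0.16 (3′, shared and single-transcript, SE), each with overlap.

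Against 60-day tumours, the resistant tumours were higher by 1.11 ± 0.33 and 1.20 ± 0.28 for the Adamts4 probes (SE), given without a test, and the groups of A_55_P1955778 did not overlap. Has2 was 1.04 ± 0.33 higher, with no overlap (limma, adjusted p = 0.887). Without resistant replicate 1 the Has2 difference was 0.67, and it was 0.50 on slide 1 and 1.68 on slide 2. Without that array the Adamts4 differences were 0.84 and 0.90. The Vcan probes differed by 0.21 ± 0.30, -0.02 ± 0.32 and 0.21 ± 0.16 (SE). Of all 30486 probes, limma called 0 in this comparison, so no probe of the set passed either, and 3 of the 14 (Has2 and both Adamts4 probes), beside 5.56% of all probes, had an unadjusted p under 0.05. Nothing is read from that count, since Adamts4 was chosen on the 60-day group among others. Non-overlapping higher groups were found for 2 of the 14 probes (Has2 and Adamts4 probe A_55_P1955778) and for 1.17% of all probes, again with nothing read from the count.

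Between the drug durations, 60-day tumours had more Adamts4 than 4-day tumours, by 1.15 ± 0.33 and 0.98 ± 0.28 (SE), 2.22-fold and 1.98-fold. For both probes all 60-day tumours lay above all 4-day tumours, and these were the 2 of 14 probes with such a separation, beside 0.823% of all probes. Both groups took part in choosing Adamts4 and Vcan, so their values are a description without a test, and nothing is read from the count. The 3′ probe of Vcan differed by 0.51 ± 0.30 (SE). Has2 differed by 0.23 ± 0.33 (SE, limma adjusted p = 1), and limma called 0% of all probes in this comparison. The order of mean Adamts4 levels was thus 4-day, 60-day, resistant and untreated from low to high. The neighbouring resistant and untreated tumours overlapped for both probes. For A_55_P2159555 the 60-day and resistant tumours overlapped too, with 3.48 the highest 60-day and 3.43 the lowest resistant value. For Has2 the 4-day and 60-day neighbours overlapped, as did the resistant and untreated ones. For the 3′ probe of Vcan the 4-day, 60-day and resistant tumours overlapped.

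Few other genes of the pathway passed the test. Of 119 other genes in 5 lists, 97 passed the filter at the brightest probe. In limma with adjustment over all probes, 2 fell and 0 rose after 4 days, where 0.932% of genes were called lower, and 2 fell and 0 rose after 60 days, where 0.55% were. Adamts16, among those called after 60 days, passed the filter mainly through the untreated tumours, so nothing is read from the 60-day count. No listed gene passed in the other 4 comparisons, where 0.0182% of genes were called between resistant and untreated tumours, 0.0091% between resistant and 4-day tumours, and 0% in the others.

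Chsy1, an enzyme that builds the chondroitin sulfate chains carried by versican, fell in both. It read 0.62, 0.49, 0.08 and 0.52 in untreated tumours, -0.69, -0.47, -0.47 and -1.19 after 4 days, -0.09, -0.79, -0.63 and -0.71 after 60 days, and 0.51, -0.26, -0.25 and -0.32 in resistant tumours. All treated tumours lay below all untreated ones. The difference was -1.13 ± 0.22 after 4 days (limma, adjusted p = 0.027) and -0.98 ± 0.22 after 60 days (limma, adjusted p = 0.048). In resistant tumours it was -0.51 ± 0.22 (limma, adjusted p = 0.489).

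Tnfaip6, also called TSG-6, which moves protein chains onto hyaluronan, fell after 4 days. It read 1.95, 0.88, 1.44 and 0.71 after 4 days, against 3.05, 3.39, 1.87 and 3.29 in untreated tumours, with overlap through untreated replicate 3 and 4-day replicate 1. The difference was -1.66 ± 0.36 (limma, adjusted p = 0.040), and it was -1.49 ± 0.36 after 60 days (limma, adjusted p = 0.060) and -0.94 ± 0.36 in resistant tumours (limma, adjusted p = 0.404).

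Adamts16, a less studied protease of the family, passed the threshold after 60 days, as a lower signal near background. It read 0.36, -0.19, -0.21 and 0.10 after 60 days, with 0 of 4 arrays well above background, against 1.51, 1.23, 0.42 and 1.00 in untreated tumours, with 3 of 4 above it. It was well above background on 4 of 16 arrays, the number the filter asks for, so it was tested mainly through the untreated group. Its p-values are given with nothing read from them. Its Cy5 signal was at least 1.79-fold lower after 60 days than in untreated tumours (limma, adjusted p = 0.037 for the ratio). It was at least 1.96-fold lower in resistant tumours, again with 0 of 4 arrays above background (limma, adjusted p = 0.127). The 60-day adjusted p was 0.0504 with no filter and 0.0691 on processed signals (limma), and the gene was not tested with a filter of 12 arrays.

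These calls were lost in some fits without 1 array. Left out in turn, the 16 arrays kept Chsy1 past it in 11 cases after 4 days and 4 after 60 days, Tnfaip6 in 5 and Adamts16 in 7. The highest adjusted p was 0.156 for Chsy1 after 60 days without 60-day replicate 2, 0.091 for Chsy1 after 4 days without untreated replicate 4, 0.134 for Tnfaip6 without untreated replicate 2 and 0.123 for Adamts16 without 60-day replicate 2 (limma).

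By list, the other ADAMTS and ADAMTS-like genes (16 of 20 tested) had a median difference of -0.13 after 4 days and -0.27 after 60 days, from Adamts8 at -0.90 to Adamts18 at 0.78 after 4 days. The other proteoglycan core proteins (29 of 34 tested) had medians of -0.25 and -0.16, and none passed in either direction. Hyaluronan genes (15 of 25 tested) had medians of -0.24 and -0.21 and chondroitin sulfate genes (23 of 25 tested) of -0.19 and -0.13. The median over all genes was -0.01 after 4 days and 0.00 after 60 days. Of 14 tested inhibitors, activators and cofactors none passed. Timp3, the inhibitor of these proteases, differed by 0.55 ± 0.32 after 4 days (limma, adjusted p = 0.440), by 0.43 ± 0.32 after 60 days (limma, adjusted p = 0.533) and by -0.13 ± 0.32 in resistant tumours (limma, adjusted p = 0.948).

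The ends of these lists were looked up after their values were seen. Timp1, an inhibitor of matrix metalloproteinases, differed by -2.04 ± 0.54 after 4 days with groups that did not overlap (limma, adjusted p = 0.080). Fn1, fibronectin, differed by -2.02 ± 0.54 after 60 days (limma, adjusted p = 0.081). Pcsk6, a proprotein convertase, was 1.33 ± 0.38 higher after 60 days (limma, adjusted p = 0.098). None of them passed.

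Among markers of the tissue's cell types, no fibroblast, macrophage, hair follicle or keratinocyte marker passed the threshold in any of the 6 comparisons (limma), but some list means stood apart. The mean of 12 fibroblast markers was 2.31 to 3.48 in untreated tumours, 1.98 to 3.22 after 4 days, 2.47 to 2.70 after 60 days and 2.23 to 3.52 in resistant tumours. Untreated replicate 3 was the lowest untreated tumour for fibroblast, macrophage (1.75), endothelial (1.53), pericyte and smooth muscle (0.28) and skeletal muscle (0.75) markers. It was not the lowest for melanocyte, keratinocyte, hair follicle, cartilage or T cell markers. The 10 of 11 macrophage markers detected averaged 1.75 to 2.43 in untreated tumours, 1.07 to 2.24 after 4 days, 1.17 to 1.82 after 60 days and 1.48 to 2.79 in resistant tumours. The mean of 12 hair follicle markers was 1.23 to 3.78 in untreated tumours, 3.62 to 4.76 after 4 days, 4.04 to 4.37 after 60 days and 1.21 to 3.91 in resistant tumours. The mean of 10 keratinocyte markers was 3.08 to 3.50 in untreated tumours, 3.11 to 4.19 after 4 days, 3.63 to 4.28 after 60 days and 1.34 to 4.45 in resistant tumours. The mean of 12 melanocyte markers, all detected, was 1.34 to 1.70 in untreated tumours, 1.59 to 3.17 after 4 days, 2.11 to 2.95 after 60 days and 1.11 to 2.64 in resistant tumours. That mean was thus above the reference in every group, and which cells gave the signal was not tested. The hair follicle, keratinocyte and melanocyte means of 60-day tumours lay above those of untreated tumours without overlap, while 4-day and untreated tumours overlapped for all 3 lists. The fibroblast and macrophage means overlapped in both comparisons, though most single markers were lower than in untreated tumours. After 4 days 9 of 12 fibroblast and 9 of 10 macrophage markers were lower, with medians of -0.47 and -0.46, beside -0.01 over all genes. After 60 days 8 of 12 and 10 of 10 were lower, with medians of -0.72 and -0.57, beside 0.00 over all genes. Mitf, the melanocyte transcription factor, was the only melanocyte marker past the threshold, 0.88 ± 0.20 higher after 4 days (SE, limma adjusted p = 0.045). The part of cell makeup in the differences of the set was not tested.

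Genes with the most similar profile were found by Pearson r over the 16 arrays among 15542 genes, as a description. For the brighter Adamts4 probe, A_55_P2159555, they were Rbm28 (r = 0.93), S1pr3 (0.92), Cracd (0.90), Snai1 (0.89) and Emilin1 (0.89). S1pr3 is a receptor for sphingosine 1-phosphate and Snai1 a transcription factor of the epithelial to mesenchymal transition. S1pr3 differed from untreated by -1.53 after 4 days, -1.30 after 60 days and -0.38 in resistant tumours. That is the order of Adamts4, which a choice by r over these same arrays favours, so nothing is read from it. Rbm28 spanned no more than -0.35.

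For the 3′ probe of Vcan they were St8sia2 (r = 0.94), Col8a1 (0.93), Tmem200a (0.92), Ssr1 (0.92) and Zmat3 (0.92). Col8a1, a short-chain collagen, differed by -1.87, -1.44 and -1.28 in 4-day, 60-day and resistant tumours, and Tmem200a by -2.37, -1.94 and -1.32. All 5 of these lay below untreated in resistant tumours, as Vcan did, from -0.33 to -1.32. The choice by r over these same arrays favours such a likeness, so nothing is read from it. The arrays share the same reference and groups. After group means were taken out, r was lower, at 0.55 to 0.83 for the Adamts4 list and 0.71 to 0.83 for the Vcan list. The cause was not tested.

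Inside the set, Has2 followed the brighter Adamts4 probe with r = 0.93 over 15 arrays (0.75 after group means were taken out), while the 3′ probe of Vcan had r = 0.75 with it across arrays and 0.19 within groups. Adamts1 and Has2 had r = 0.90 over 15 arrays (0.78 after group means were taken out).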

How the data were processed

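RNA of 16 mouse melanoma biopsies was read on 2-colour Agilent arrays, tumour in Cy5 and reference in Cy3. Per the file headers, each spot has intensity values for its mean brightness and local background from Agilent Feature Extraction 10.7.3.1, on a design annotated on mm9. Per the file headers, the software also gave processed intensities, a log10 ratio of Cy5 over Cy3, and other columns that flag spots above background, saturated or outlying. The deposited value table holds log2 ratios that matched the scanner ratios with a slope of 0.993, uncentred (array medians -0.194 to -0.0638) and with 21.6% to 40.2% of values missing for an unstated reason.

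Background was removed by normexp (offset 50), ratios were normalized by loess within arrays (limma 3.58.1, R 4.3.3), outlier-marked spots (0.550%) were set missing and spots averaged per probe. A probe was tested when its Cy5 signal was well above background on at least 4 of 16 arrays. The 4 groups were fitted in 1 limma model, with Benjamini-Hochberg adjustment over all 30486 probes and a threshold of 0.05. A group was called not overlapping when all its arrays lay on one side of the other group's. The fit was tested on simulated data. The number of arrays, 4 a group, limits the precision.

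Genes named are all probes of the set, listed pathway genes past the threshold, Timp3, and the 5 most similar to the brighter Adamts4 probe and to the brightest Vcan probe. Likeness and pairs are Pearson r, with no p. The members and lists were chosen with earlier results of these data known. Older symbols of Adgre1 and Cnmd were dropped from the marker lists. Sequences are probe sequences of the array files and RefSeq promoters (GRCm38.p6), and motifs were matched exactly on both strands.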

Additional observations from a re-analysis of the deposited data

Results flagged for a closer look

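Gaps within groups of 4 arrays were examined in 55 groups, of which chance would mark about 1 in 20. Adamts4 probe A_55_P1955778 read -0.762 in 60-day replicate 2, with a gap to the nearest 60-day tumour of 0.842 of the group's range. The same probe read 2.04 in resistant replicate 1, with a gap of 0.912 of the range. The other Adamts4 probe also had its lowest 60-day value in that 60-day tumour and its highest resistant value in that resistant tumour.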

How the results depend on the processing

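Of 873 differences of single probes under other settings, 807 kept their value within 1 SD of the replicates and 66 moved; none of the called values changed sign, and all 1344 with an array left out stayed within 1 SD. Counts moved more. For the 14 probes, the count past the threshold after 60 days (3) became 5 with slide as a block or with only the groups compared, 1 with processed signals, the deposited table, no filter or the brightest probe, and 0 with median centring or on either slide alone. After 4 days (4) it became 2 with median centring and 0 on either slide alone. Between resistant and 4-day tumours (2) it became 1 with processed signals, the deposited table or no filter, and 0 with median centring, the brightest probe, only the groups compared or either slide. The count of pathway genes after 4 days (2) became 5 with the slide block, 4 with Cy5 alone, 1 with processed signals or no filter, and 0 on either slide, with the deposited table, median centring or only the groups compared. After 60 days (2) it became 6 with the slide block, 15 with only the groups compared, 1 with the brightest probe, and 0 on either slide, with processed signals, the deposited table, median centring, no filter or a filter of 12 arrays.

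With 1 array left out, the 14 probes gave 3 to 8 calls after 4 days (8 without untreated replicate 3), 1 to 6 after 60 days (6 without untreated replicate 3, 5 without resistant replicate 1, and 1 without any of the 60-day arrays, resistant replicate 4 or untreated replicate 1, 2 or 4), 0 to 2 between resistant and 4-day tumours (0 without 4-day replicate 4) and 0 in the other comparisons. The pathway lists gave 0 to 5 after 4 days and 0 to 10 after 60 days. Over all probes the calls ranged from 76 (without untreated replicate 2) to 866 (without untreated replicate 3) after 4 days and from 35 (without 60-day replicate 3) to 1463 (without resistant replicate 1) after 60 days. Between resistant and untreated tumours they ranged from 2 (without resistant replicate 3) to 267 (without untreated replicate 3). With all arrays the calls over all probes, 401 after 4 days and 319 after 60 days, became 835 and 945 with the slide block, 170 and 117 with processed signals, 127 and 104 with the deposited table, 14 and 11 with median centring, 605 and 421 with Cy5 alone, 30 and 1560 with only the groups compared, and 0 on either slide. The cause was not tested. No paired analysis was possible because replicate numbers were given in accession order. Signal near background limits Acan and the single-transcript Vcan probe.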
